A study of Mus musculus with 19 samples.

Results

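The genes described here are the 7 that encode the endogenous opioid peptides and their receptors. They comprise the precursors proenkephalin (Penk), prodynorphin (Pdyn) and prepronociceptin (Pnoc) and the receptors mu (Oprm1), delta (Oprd1), kappa (Oprk1) and nociceptin (Oprl1). They were chosen by exact gene name in the authors' deposited comparison tables and followed by gene ID in the count files. All 7 were found among the 49592 genes of the count files, and 7 of 7 were among the 21513 genes that passed the filter on low counts. The series measured gene counts in the striatum of 19 male mice aged 4 months, 1 library per mouse. The design asks how the striatum answers an acute dose of amphetamine, and whether that answer depends on the D2 dopamine receptor in the prefrontal cortex.

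All mice were of the strain D2RCre_floxCas9-EGFP, in which Cre is driven by the D2 receptor gene and switches on Cas9 and EGFP, so controls carried Cre and Cas9 as well. Knockout mice (PFC_D2R-KO) received AAV5 with D2R-sgRNA in the medial prefrontal cortex, and control mice received AAV5 syn-mCherry there. After 3 weeks the mice were given saline on 5 days, and on day 9 a challenge of amphetamine at 3 mg/kg or of saline. The labels place tissue collection 90 min after amphetamine and give no separate time for saline. The groups were amphetamine knockout (n = 4), saline knockout (n = 5), amphetamine control (n = 5) and saline control (n = 5). The authors' deposited table for the drug comparison in knockout mice records by its name that an amphetamine knockout library numbered 7 was omitted, and that library was not analysed here. The guide RNAs were delivered to prefrontal cortex, so the striatal counts hold no measurement of the deletion. Striatal Drd2, the targeted gene, averaged 85.4 ± 40.0 CPM (counts scaled by the library total, here with the TMM correction between libraries) in amphetamine knockout, 105 ± 19.1 in saline knockout, 173 ± 25.6 in amphetamine control and 125 ± 31.9 in saline control mice.

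Opioid peptides are made as long precursors that proprotein convertases and carboxypeptidases trim at pairs of basic residues. In the striatum, enkephalin from Penk marks the projection neurons of the indirect pathway and dynorphin from Pdyn those of the direct pathway. Enkephalins act mainly on delta and mu receptors, dynorphins on kappa receptors and nociceptin on its own receptor, and all 4 receptors couple to inhibitory G proteins. Kappa receptors on dopamine terminals restrain dopamine release, and mu receptors are concentrated in the striosome compartment. Dopamine and psychostimulants are known to act on the transcription of both Penk and Pdyn.

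The precursors carry their opioid peptides as short cores, repeated in Penk and Pdyn and present as 1 core in Pnoc, and these are printed below. The counts measure reads of each gene, not cores or peptides. Each sequence below is read 5′ to 3′ in the coding sense from the GENCODE vM21 annotation on GRCm38, a different build from the GRCm39 coordinates of the deposited files. All lie on the minus strand. Capitals mark the 5 codons of the opioid core, and the small letters are the 2 codons on each side, which were checked for basic pairs. A basic pair there is not shown to be a site of cleavage. A core was searched as a tyrosine or phenylalanine codon followed by codons for glycine, glycine and phenylalanine. The Penk transcript has 268 codons and holds 7 cores, all in exon 2, of which 6 end in a methionine codon and 1 in a leucine codon. The Pdyn transcript has 248 codons and holds 3 cores, all in exon 4 and all ending in a leucine codon. Pnoc, read in the longest of 2 annotated frames, has 212 codons and 1 core, in exon 3, which opens with a phenylalanine codon in place of tyrosine and ends in a threonine codon. The Penk cores begin at codons 100, 107, 136, 187, 211, 231 and 262, those of Pdyn at codons 166, 202 and 221 and that of Pnoc at codon 141. The last Penk core is followed by codons that are not a basic pair, and the same holds for the fourth Penk core and the Pnoc core. A basic pair precedes every core shown.
Penk core 1, chr4:4134328-4134354: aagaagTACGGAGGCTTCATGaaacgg
Penk core 2, chr4:4134307-4134333: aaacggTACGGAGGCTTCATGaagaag
Penk core 3, chr4:4134220-4134246: aagaggTATGGCGGCTTCATGaagaag
Penk core 4, chr4:4134067-4134093: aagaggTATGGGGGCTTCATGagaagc
Penk core 5, chr4:4133995-4134021: aagcgcTACGGGGGCTTCATGagaagg
Penk core 6, chr4:4133935-4133961: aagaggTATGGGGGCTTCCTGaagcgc
Penk core 7, chr4:4133842-4133868: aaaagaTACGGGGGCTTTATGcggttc
Pdyn core 1, chr2:129688232-129688258: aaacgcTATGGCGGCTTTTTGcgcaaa
Pdyn core 2, chr2:129688124-129688150: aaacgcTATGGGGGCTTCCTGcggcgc
Pdyn core 3, chr2:129688067-129688093: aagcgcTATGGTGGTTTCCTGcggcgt
Pnoc core, chr14:65404872-65404898: aaaaggTTTGGGGGCTTCACCggggcc

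In the deposited files the genes lie on 5 chromosomes of GRCm39. Penk (ENSMUSG00000045573.10) spans chr4:4133531-4138819, Pdyn (ENSMUSG00000027400.12) chr2:129528485-129541753 and Pnoc (ENSMUSG00000045731.7) chr14:65638122-65662921. Oprm1 (ENSMUSG00000000766.19) spans chr10:6708506-6988198 and Oprd1 (ENSMUSG00000050511.2) chr4:131838037-131871797. Oprk1 (ENSMUSG00000025905.15) spans chr1:5658716-5676354 and Oprl1 (ENSMUSG00000027584.18) chr2:181356809-181362778. Penk overlaps A830012C17Rik, which averaged between 0.783 and 0.989 CPM by group. Oprm1 overlaps Ipcef1, which was far more abundant than Oprm1, with group means from 34.6 to 48.0 CPM. Oprm1 counts may include reads of Ipcef1, since the sources used here do not give the strand setting of the counting.

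Library totals ran from 72759747 to 83149920 counts in amphetamine knockout, from 75449097 to 85536346 in saline knockout, from 57003408 to 80857642 in amphetamine control and from 65578294 to 75756345 in saline control mice. At this depth Penk had at least 22183 counts in every library, whereas Oprm1, the least abundant, had between 60 and 526. The 5 libraries farthest from the centre on the first 4 principal components of all genes were amphetamine knockout 2 and 3, saline knockout 3, amphetamine control 3 and saline control 5, and these are called libraries that stood apart. Values without them are given beside the results they moved most, and the values that turned are listed with the other settings. Leaving these libraries out was a setting chosen after seeing the data. It keeps only mice 1 and 4 of the amphetamine knockout group, so its values for that group rest on few mice. The 12 markers of striatal projection neurons summed to between 2648 and 7866 CPM in each library. Markers of neighbouring tissue varied, however, and the 12 hypothalamic markers summed to between 13.1 and 219 CPM. Counts in bulk tissue cannot tell fewer cells of a type from less RNA per cell.

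Per unit of gene length, Penk was the most abundant of the 7 by a wide margin. Over all 19 mice the authors' deposited FPKM (fragments relative to the length of a gene and the size of its library, where the length used is unstated) averaged 482 ± 138 for Penk and 53.0 ± 12.8 for Pdyn (SD). Among receptors the nociceptin receptor led, with 20.4 ± 3.71 FPKM for Oprl1, 6.42 ± 1.12 for Oprk1, 3.86 ± 1.08 for Oprd1 and 1.81 ± 0.579 for Oprm1. Pnoc, the peptide precursor for Oprl1, averaged 5.66 ± 2.16 FPKM and fell among the receptors. The order held mouse by mouse at its upper end: Penk exceeded Pdyn in 19 of 19 mice, Pdyn exceeded Oprl1 in 18 of 19, and Oprl1 exceeded Oprk1 in 19 of 19. Neighbours in the middle of the order changed places, since Oprk1 exceeded Pnoc in 14 of 19 mice and Pnoc exceeded Oprd1 in 12 of 19. Oprd1 exceeded Oprm1 in 19 of 19.

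**Figure D1:**
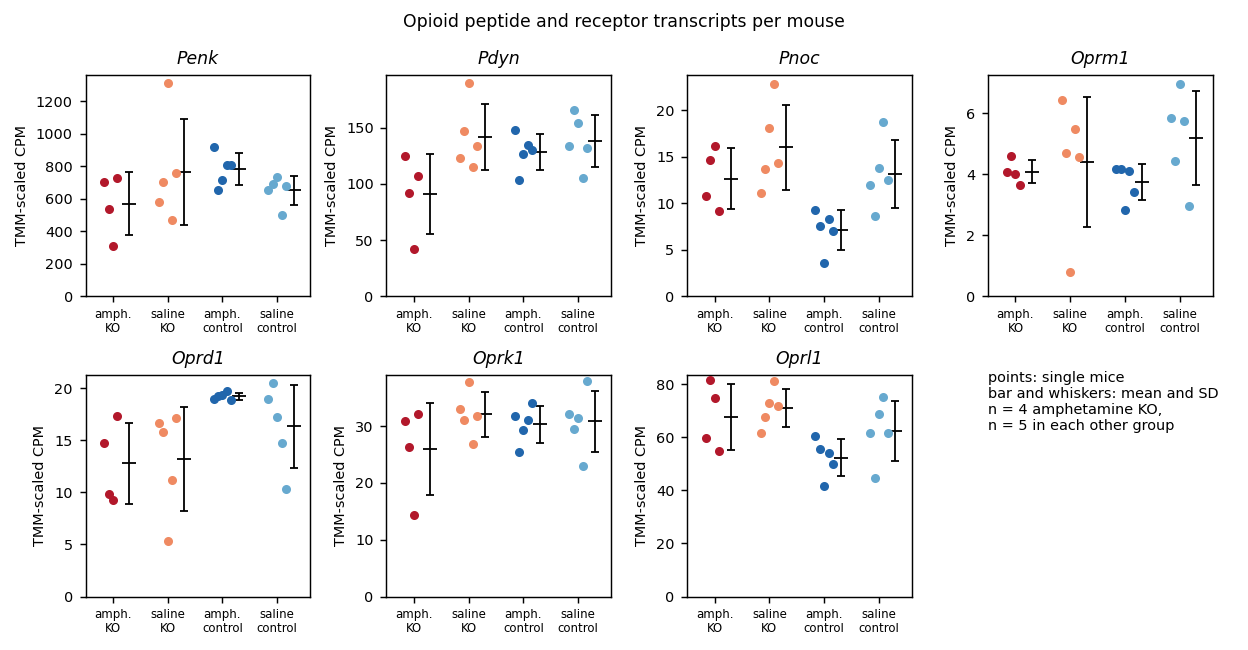
TMM-scaled CPM (y axis, from 0) of each opioid gene in each mouse, by group, with points for single mice and bars for the mean and SD (n = 4 amphetamine knockout, n = 5 in each other group). Pnoc lies between 3.59 and 9.23 CPM in amphetamine control mice, while saline knockout mouse 3 is the highest for Penk, at 1314 CPM, and the lowest for Oprm1, at 0.804 CPM.

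The comparison of amphetamine with saline in control mice asks for the acute drug answer with the prefrontal D2 receptor intact. Of the 7 genes, Pnoc had the largest difference, with a lower level after amphetamine. Pnoc had 9.23, 7.55, 3.59, 8.34 and 7.05 CPM in amphetamine control mice, against 12.0, 8.61, 13.8, 18.7 and 12.5 CPM in saline control mice. Amphetamine control mouse 3 was the lowest, and the groups overlapped only through saline control mouse 2, which lay under the highest amphetamine mouse. The log2 fold change was -0.88 ± 0.246 (SE, 95% interval -1.39 to -0.36), with an adjusted p of 0.197 by edgeR's quasi-likelihood test with Benjamini-Hochberg adjustment over all genes. In the authors' deposited table for the same comparison Pnoc had a log2 fold change of -0.87 (SE 0.232) and an adjusted p of 0.0101, and it was the only opioid gene called there, against 4.21% of the genes that table tests. DESeq2 on the 19 libraries, run as an alternative, gave -0.87 with an adjusted p of 0.0392, so the call, set at an adjusted p under 0.05, depends on the test. Without the 5 libraries that stood apart the fold change was -0.73 (adjusted p = 0.180, edgeR's quasi-likelihood test).

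No opioid gene was called in control mice by edgeR, where 0.00465% of all genes were. At an unadjusted p under 0.05 the count was 1 of 7 (Pnoc), beside 11.8% of all genes. DESeq2 called 1 of 7, and 199 among all genes, and limma voom called 0 of 7. Oprl1, the receptor for the Pnoc peptide, had 60.5, 55.4, 41.6, 54.1 and 50.1 CPM in amphetamine control mice, against 61.8, 44.5, 68.9, 75.1 and 61.4 CPM in saline control mice. Amphetamine control mouse 3 was again the lowest, and the groups overlapped through saline control mouse 2. The log2 fold change of Oprl1 was -0.25 ± 0.131 (edgeR's quasi-likelihood test, adjusted p = 0.460).

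Penk had 917, 657, 717, 810 and 805 CPM in amphetamine control mice, against 654, 692, 734, 503 and 681 CPM in saline control mice. Of the amphetamine mice, 3 of 5 lay above every saline mouse, with overlap between 657 and 734 CPM. Its log2 fold change was 0.26 ± 0.235 (95% interval -0.23 to 0.75) and was not called (edgeR's quasi-likelihood test, adjusted p = 0.719). Pdyn had 148, 104, 126, 135 and 130 CPM in amphetamine control mice, against 134, 165, 154, 105 and 131 CPM in saline control mice. The groups covered nearly the same range, and the log2 fold change was -0.10 ± 0.209.

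The other receptors showed no call in control mice. Oprm1 had 4.16, 4.18, 2.84, 4.12 and 3.43 CPM in amphetamine control mice, against 5.86, 4.42, 6.96, 5.74 and 2.96 CPM in saline control mice. Saline control mouse 5, a library that stood apart, lay among the amphetamine mice, and the other 4 saline mice lay above all of them. The log2 fold change of Oprm1 was -0.47 ± 0.333 (edgeR's quasi-likelihood test, adjusted p = 0.625). Oprd1 was nearly constant after amphetamine, with 18.96, 19.27, 19.29, 19.68 and 18.88 CPM in amphetamine control mice, against 18.9, 20.5, 17.3, 14.7 and 10.3 CPM in saline control mice. Its SD was 0.316 CPM in amphetamine control mice and 3.99 CPM in saline control mice, and its log2 fold change was 0.23 ± 0.249. Oprk1 averaged 30.4 ± 3.26 CPM in amphetamine control mice and 30.8 ± 5.33 CPM in saline control mice (SD, n = 5 each), a log2 difference of -0.022 with a 95% interval from -0.37 to 0.32.

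In knockout mice the same drug comparison gave a log2 fold change below 0 for all 7 opioid genes, beside 10989 of all 21513 genes. Without the 5 libraries that stood apart Penk, Oprd1 and Oprk1 lay above 0, and with limma voom Oprm1 and Oprd1 did. With all libraries Pdyn was furthest from 0. Pdyn had 125, 91.6, 41.7 and 107 CPM in amphetamine knockout mice, against 123, 147, 190, 115 and 134 CPM in saline knockout mice. Amphetamine knockout mouse 3 had less than any other of the 19 mice, saline knockout mouse 3 had the most, and the groups overlapped only through amphetamine knockout mouse 1. The log2 fold change was -0.64 ± 0.224 (95% interval -1.10 to -0.17) and was not called (edgeR's quasi-likelihood test, adjusted p = 0.298). It was -0.40 without amphetamine knockout mouse 3 and -0.17 without the 5 libraries that stood apart. In the authors' deposited table the log2 fold change of Pdyn was -0.63 (SE 0.263) with an adjusted p of 0.318, and 0 of 7 opioid genes were called, beside 0.665% of the genes tested there.

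Penk had 703, 539, 309 and 729 CPM in amphetamine knockout mice, against 579, 706, 1314, 469 and 760 CPM in saline knockout mice. The lowest and the highest value of the whole series thus lay in these groups, in mouse 3 of each, and the other values overlapped. On the log2 scale the fold change was -0.42 ± 0.251 (95% interval -0.95 to 0.10). Without the 5 libraries that stood apart it was 0.18, so its direction rested on those libraries.

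Pnoc had 10.7, 14.6, 16.2 and 9.13 CPM in amphetamine knockout mice, against 11.1, 13.7, 18.1, 22.9 and 14.3 CPM in saline knockout mice. The groups overlapped over most of their range, and the log2 fold change was -0.34 ± 0.257. Oprk1 had 30.9, 26.3, 14.4 and 32.2 CPM in amphetamine knockout mice, against 32.9, 31.0, 37.8, 26.8 and 31.8 CPM in saline knockout mice. Its lowest value was again amphetamine knockout mouse 3, and its log2 fold change of -0.31 ± 0.176 became 0.032 without the libraries that stood apart. Oprl1, Oprm1 and Oprd1 had log2 fold changes of -0.070, -0.11 and -0.047, with 95% intervals from -0.36 to 0.22, from -0.84 to 0.63 and from -0.60 to 0.51.

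By edgeR 0 of 7 opioid genes were called in knockout mice, beside 0.00465% of all genes. At an unadjusted p under 0.05 there was 1 (Pdyn), beside 12.1% of all genes, and DESeq2 and limma voom called 0. The median log2 fold change of the 7 was -0.31 in knockout mice, and the median of all genes tested was -0.0059. In control mice the median of the 7 was -0.10, with 5 below 0, beside -0.0074 for all genes, of which 11109 of 21513 lay below 0.

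**Figure D2:**
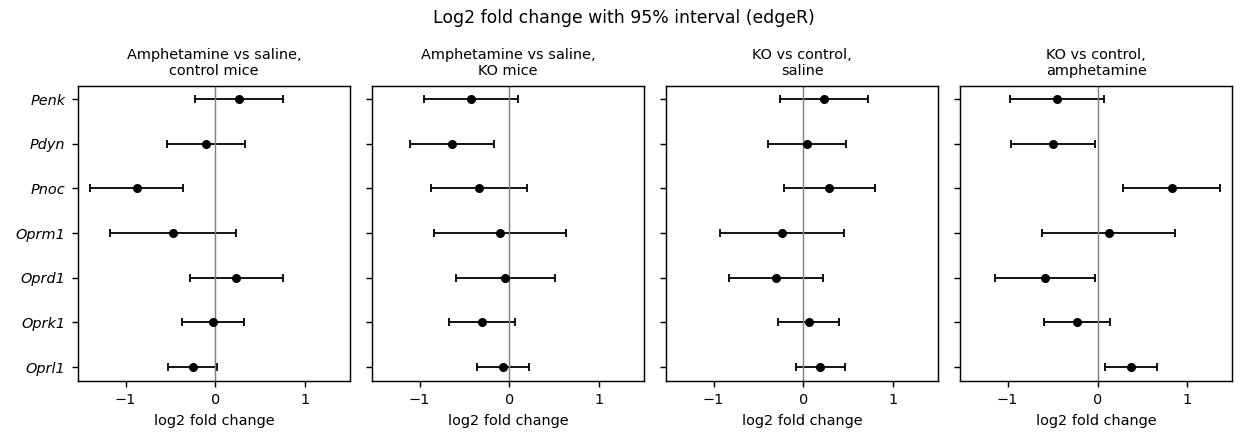
Log2 fold change (x axis) of each opioid gene (y axis) in 4 comparisons, as points with 95% intervals from edgeR's quasi-likelihood fit over 19 mice. The interval excludes 0 for Pnoc in control mice after amphetamine, for Pdyn in knockout mice after amphetamine, for 0 genes under saline and for Pdyn, Pnoc, Oprd1 and Oprl1 between genotypes after amphetamine, and none of these passed adjustment.

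Whether the knockout shifts the resting level was asked by comparing saline knockout with saline control mice. No opioid gene was called. The largest log2 difference was that of Oprd1, at -0.31 ± 0.249, with 16.6, 15.8, 5.32, 11.2 and 17.1 CPM in saline knockout mice, against 18.9, 20.5, 17.3, 14.7 and 10.3 CPM in saline control mice. The lowest value in each group came from a library that stood apart, saline knockout mouse 3 and saline control mouse 5, and the groups overlapped widely. Oprm1 had 6.42, 4.70, 0.804, 5.49 and 4.58 CPM in saline knockout mice, and the 0.804 CPM of mouse 3 was the lowest of the series. Its log2 difference was -0.24 ± 0.331. Penk, Pdyn, Pnoc, Oprk1 and Oprl1 had differences of 0.23, 0.038, 0.29, 0.057 and 0.19. By edgeR 0 of 7 were called and 0 reached an unadjusted p under 0.05, beside 0% and 7.94% of all genes, and DESeq2 and limma voom called 0. None of the 7 was called in the authors' deposited table, beside 0.00439% of the genes tested there.

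The genotypes were also compared after amphetamine. Pnoc and Oprl1 were higher and Pdyn and Oprd1 lower in amphetamine knockout than in amphetamine control mice, each at an unadjusted p under 0.05 by edgeR's quasi-likelihood test, and 12.8% of all genes reached that level. None of the 4 was called after adjustment, where edgeR called 0% of all genes, and DESeq2 and limma voom called 0 of 7. For Pnoc the log2 difference was 0.82 ± 0.258 (adjusted p = 0.227), from 12.7 ± 3.28 CPM in amphetamine knockout mice and 7.15 ± 2.16 CPM in amphetamine control mice (SD, n = 4 and 5). The groups overlapped through amphetamine knockout mouse 4, which lay under amphetamine control mouse 1. Without the 5 libraries that stood apart the difference was 0.31. Oprl1 averaged 67.7 ± 12.5 CPM in amphetamine knockout mice and 52.3 ± 7.07 CPM in amphetamine control mice, a log2 difference of 0.37 ± 0.138 (adjusted p = 0.269). The difference of Oprl1 was 0.060 without the 5 libraries that stood apart.

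Oprd1 was the only opioid gene whose groups did not overlap in any of the 4 comparisons between groups. It had 14.8, 9.80, 9.25 and 17.3 CPM in amphetamine knockout mice, against 18.96, 19.27, 19.29, 19.68 and 18.88 CPM in amphetamine control mice. The lowest knockout values were those of mice 2 and 3, and every knockout mouse lay under every control mouse. Of all genes tested, 6.79% did not overlap in this comparison, and the share was 3.9% for amphetamine in control mice, 5.07% for amphetamine in knockout mice and 0.911% for genotype under saline, where 0 of 7 opioid genes were free of overlap. The log2 difference of Oprd1 was -0.59 ± 0.267 (95% interval -1.15 to -0.03; edgeR's quasi-likelihood test, adjusted p = 0.370). Pdyn averaged 91.1 ± 35.6 CPM in amphetamine knockout mice and 129 ± 16.2 CPM in amphetamine control mice, a log2 difference of -0.50 ± 0.223 (adjusted p = 0.366). Penk averaged 570 ± 193 CPM in amphetamine knockout mice and 781 ± 99.2 CPM in amphetamine control mice, a log2 difference of -0.45 ± 0.251. These differences were -0.26 for Oprd1, -0.16 for Pdyn and -0.15 for Penk without the 5 libraries that stood apart. Of the amphetamine knockout mice that setting keeps only mice 1 and 4.

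The drug answer was not shown to differ between genotypes for any opioid gene. The difference of the log2 fold changes, knockout minus control, was -0.68 ± 0.343 for Penk, -0.53 ± 0.305 for Pdyn and 0.54 ± 0.354 for Pnoc, and the adjusted p-values by edgeR's quasi-likelihood test lay at 0.550, 0.574 and 0.619. For the receptors it was 0.36 for Oprm1, -0.28 for Oprd1, -0.28 for Oprk1 and 0.18 for Oprl1. By edgeR 0 of 7 were called and 0 reached an unadjusted p under 0.05, beside 0% and 9.25% of all genes, and DESeq2 and limma voom called 0. The 95% interval for Penk ran from -1.40 to 0.03, and that for Pnoc from -0.20 to 1.28. The differences were -0.12 for Penk, -0.055 for Pdyn and 0.082 for Pnoc without the 5 libraries that stood apart. Leaving out saline knockout mouse 3 alone gave -0.39 for Penk, and leaving out amphetamine knockout mouse 3 alone gave -0.30 for Pdyn.

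Averaged over both genotypes, amphetamine mice had less Pnoc and less Pdyn than saline mice at an unadjusted p under 0.05. The log2 fold change was -0.61 ± 0.178 for Pnoc (edgeR's quasi-likelihood test, adjusted p = 0.141) and -0.37 ± 0.153 for Pdyn (adjusted p = 0.273). By edgeR 0 of 7 were called, beside 0.149% of all genes, 2 of 7 reached an unadjusted p under 0.05, beside 14.5%, and limma voom called 0. DESeq2 called Pnoc, at -0.60 with an adjusted p of 0.0370, and called 459 among all genes. Without the 5 libraries that stood apart edgeR's quasi-likelihood test called 1 opioid gene, Oprm1, at a log2 fold change of -0.50 (adjusted p = 0.0355), against -0.29 ± 0.243 with all 19 libraries. That setting called 470 among all genes. Pnoc was then -0.69 and Pdyn -0.15. Averaged over both treatments, knockout mice had more Pnoc (0.56 ± 0.177) and Oprl1 (0.28 ± 0.0950) and less Oprd1 (-0.45 ± 0.182) than control mice on the log2 scale. These 3 of 7 reached an unadjusted p under 0.05, beside 11.6% of all genes, and 0 were called by edgeR, beside 0% of all genes, or by DESeq2 or limma voom. These values were 0.26 for Pnoc, 0.12 for Oprl1 and -0.25 for Oprd1 without the 5 libraries that stood apart.

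The balance of the main striatal precursors, Penk over Pdyn, is given as a ratio for each mouse. Neither gene was called alone. The ratio of their FPKM was 10.2, 10.4, 9.35, 9.92 and 10.2 in amphetamine control mice, against 8.04, 6.89, 7.86, 7.85 and 8.53 in saline control mice. Every amphetamine control mouse lay above every saline control mouse. The 3.9% of single genes free of overlap in this comparison is no measure for a ratio of 2 genes. The share of such ratios free of overlap was not computed. In knockout mice the ratio was 9.30, 9.70, 12.2 and 11.3 after amphetamine, against 7.77, 7.91, 11.4, 6.71 and 9.37 after saline, and these groups overlapped through saline knockout mice 3 and 5. The group means were 10.6 ± 1.36 in amphetamine knockout, 8.63 ± 1.81 in saline knockout, 10.02 ± 0.415 in amphetamine control and 7.83 ± 0.594 in saline control mice (SD). The ratio was taken up after the values of both genes were seen and is given as a description with no test.

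**Figure D3:**
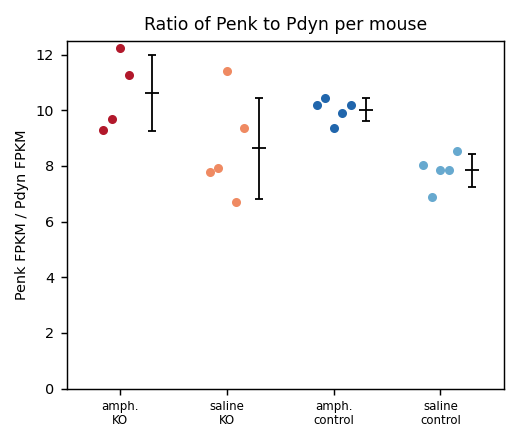
Ratio of Penk FPKM to Pdyn FPKM (y axis, from 0) in each mouse by group, with points for mice and bars for the mean and SD. Amphetamine control mice lie between 9.35 and 10.4 and saline control mice between 6.89 and 8.53, while the knockout groups overlap.

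Within groups, Penk, Pdyn and Oprk1 varied together from mouse to mouse, and so did Pnoc and Oprl1. Correlations were taken over 19 mice on log2 CPM after subtracting each group's mean, with permutation p-values (100000 resamples within groups) adjusted by Benjamini-Hochberg over 112 pairs. Of 21 pairs among the opioid genes, 4 passed at an adjusted p under 0.05, and Oprm1 and Oprd1 were in none of these. Penk and Pdyn correlated at r = 0.895 (Spearman's rho 0.863, permutation test, adjusted p = 0.00112), and at 0.878 without the 2 mice farthest from the median, amphetamine knockout 3 and saline knockout 3. Penk and Oprk1, the kappa receptor, correlated at r = 0.828 (rho 0.737, permutation test, adjusted p = 0.00252; 0.798 without 2 mice). Pdyn and Oprk1, which encode a peptide precursor and its receptor, correlated at r = 0.872 (permutation test, adjusted p = 0.0123; 0.717 without 2 mice), but the rank correlation of 0.679 was not called (permutation test, adjusted p = 0.0675).

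The nociceptin precursor and its receptor formed the tightest pair. Pnoc and Oprl1 correlated at r = 0.910 (rho 0.926, 0.901 without 2 mice), and the raw permutation p of 1e-05 is the smallest that 100000 resamples can give (adjusted p = 0.00112). Oprm1 and Oprd1 had r = 0.738 over all 19 mice and were not called. Without saline knockout 3 and saline control 5 that value was 0.153, so it rested on those libraries. Both values of a pair come from the same library and share its depth and dissection.

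**Figure D4:**
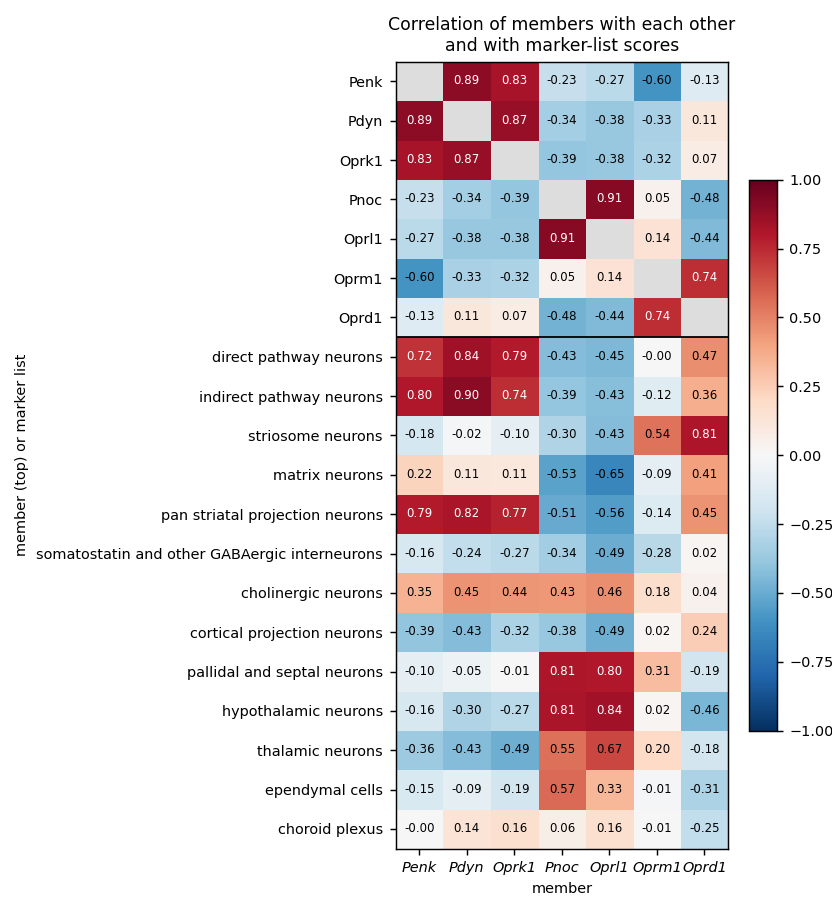
Pearson correlation (colour and number, from -1 to 1) over 19 mice, group means subtracted, of each opioid gene (x axis) with the other opioid genes (upper rows) and with 13 marker lists (lower rows). Penk, Pdyn and Oprk1 share a block with each other and with projection neuron markers, and Pnoc and Oprl1 share one with pallidal, septal and hypothalamic markers.

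Marker lists of striatal and neighbouring cells were correlated with the opioid genes in the same way. Each list was scored per mouse by averaging log2 CPM over its genes. Of 91 pairs of an opioid gene with a marker list, 14 passed. Pdyn correlated with the score of indirect pathway markers at r = 0.900 (rho 0.849, permutation test, adjusted p = 0.00168; 0.889 without the 2 mice farthest out). With direct pathway markers Pdyn had r = 0.845 (rho 0.656) and with projection neuron markers in general 0.816 (rho 0.718). For Penk these 3 values were 0.804 (rho 0.798), 0.723 (rho 0.586) and 0.793 (rho 0.744). Oprk1 had r = 0.792 with direct pathway markers (rho 0.611) and 0.773 with projection neuron markers (rho 0.593). With indirect pathway markers Oprk1 had r = 0.742 (rho 0.605), which was not called (permutation test, adjusted p = 0.122). That value was 0.852 without the 2 mice farthest out, amphetamine knockout 3 and saline control 5 (permutation test, adjusted p = 0.00392). Oprd1 had r = 0.811 with striosome markers (rho 0.737; 0.708 without the 2 mice farthest out). Oprm1 had r = 0.541 with striosome markers (rho 0.212), which was not called (permutation test, adjusted p = 0.242). The rank correlations of Penk with direct pathway markers and of Oprk1 with direct pathway and projection neuron markers were not called (permutation test, adjusted p = 0.117, 0.0780 and 0.0914). Penk and Pdyn with direct pathway markers, and Oprk1 with direct pathway and projection neuron markers, were no longer called without the 2 mice farthest out, at r = 0.553, 0.603, 0.542 and 0.588. Amphetamine knockout mouse 3 was among the mice left out in each of these 4.

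The level of the projection neuron markers is given beside these genes. The score of 12 such markers was 8.04 ± 0.585 in amphetamine knockout, 8.30 ± 0.302 in saline knockout, 8.81 ± 0.146 in amphetamine control and 8.35 ± 0.273 in saline control mice (SD of the mean log2 CPM). After amphetamine 12 of 12 lay lower in knockout than in control mice, with a median log2 difference of -0.72, in the comparison in which Pdyn, Penk and Oprd1 were lower. By edgeR 0 of these 12 were called there. At an unadjusted p under 0.05 by edgeR's quasi-likelihood test 12 of 12 were lower, beside 1149 of all 21513 genes. Of all genes, 10543 lay below 0. The scores of amphetamine knockout mice 2 and 3 were 7.79 and 7.34, and those of mice 1 and 4 were 8.44 and 8.60. Drd1 and Tac1, which define the direct pathway, and Drd2 and Adora2a, which define the indirect pathway, were also lower in amphetamine knockout than in amphetamine control mice. Drd1 averaged 119 ± 53.3 CPM in amphetamine knockout and 207 ± 22.0 CPM in amphetamine control mice. Tac1 averaged 160 ± 69.0 CPM in amphetamine knockout and 268 ± 41.3 CPM in amphetamine control mice, and Adora2a 110 ± 55.1 and 205 ± 22.6 CPM in those groups. The part of these markers in the differences of Penk, Pdyn and Oprd1 was not tested.

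Pnoc and Oprl1 went with markers of tissue next to the striatum. Pnoc correlated at r = 0.814 with the score of 12 hypothalamic markers (rho 0.786, permutation test, adjusted p = 0.00112; 0.768 without the 2 mice farthest out) and at 0.807 with that of 8 pallidal and septal markers (rho 0.714). Oprl1 had r = 0.843 with hypothalamic markers (rho 0.798), 0.797 with pallidal and septal markers (rho 0.767) and 0.666 with thalamic markers (rho 0.714). The correlations with pallidal and septal markers were no longer called without amphetamine control mouse 3 and saline control mouse 2 (0.617 for Pnoc and 0.688 for Oprl1). With cholinergic neuron markers Pnoc had r = 0.430 and Oprl1 0.463, not called (permutation test, adjusted p = 0.242 for each). Without amphetamine knockout 3 and amphetamine control 3 these were called, at 0.620 and 0.721 (permutation test, adjusted p = 0.0032 for each). Pnoc with thalamic markers had 0.553, not called, and 0.7415 without the 2 mice farthest out (permutation test, adjusted p = 0.0123). The hypothalamic markers summed to between 18.01 and 82.4 CPM in amphetamine knockout, 90.2 and 187 in saline knockout, 13.1 and 33.0 in amphetamine control and 21.3 and 219 in saline control mice. Of these 12 genes, 11 lay lower in amphetamine control than in saline control mice, with a median log2 fold change of -1.67, beside the -0.88 of Pnoc. Among them Hcrt was at 0 counts in 2 libraries, Sim1 in 2 and Ghrh in 1. Agrp had 1 to 19 counts per library and Pmch 12 to 129, while Avp had 20 to 5724 and Oxt 7 to 4865. The score weighs each of these genes alike, also those with few counts. The 8 pallidal and septal markers in the fit lay 8 of 8 lower in that comparison (median -0.62), and the ninth gene of the list, Gata3, was at 0 in 5 libraries. By edgeR 0 genes of either list were called there. At an unadjusted p under 0.05 by edgeR's quasi-likelihood test 7 of 12 hypothalamic markers and 6 of 8 pallidal and septal markers were lower. Of all 21513 genes, 1495 were lower at that level and 11109 lay below 0. The part of this tissue in the difference of Pnoc was not tested.

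**Figure D5:**
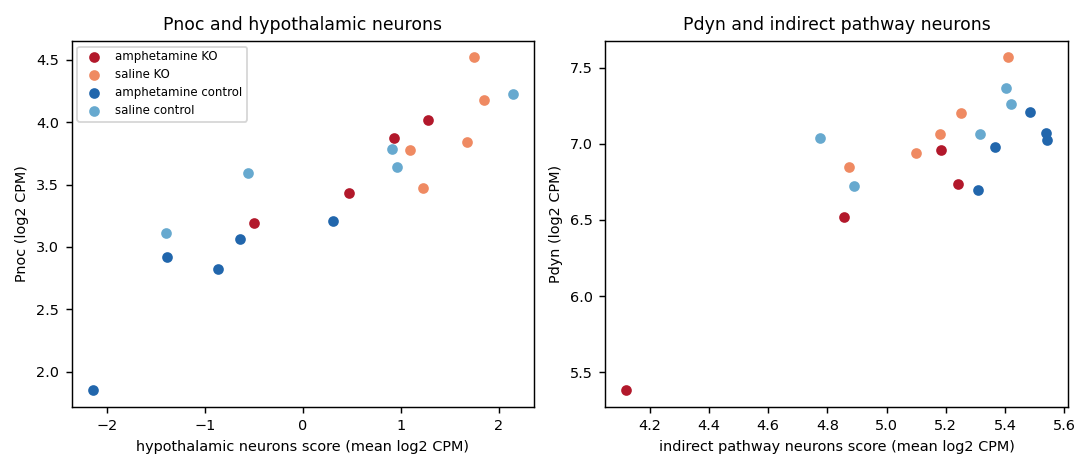
Left, log2 CPM of Pnoc (y axis) against the hypothalamic marker score (x axis, mean log2 CPM). Right, log2 CPM of Pdyn against the indirect pathway marker score. Each point is a mouse, coloured by group, and amphetamine control mouse 3 has the lowest Pnoc and hypothalamic score while amphetamine knockout mouse 3 has the lowest Pdyn and indirect pathway score.

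The genes most like each opioid gene over the 19 mice were sought among 15225 named genes with a mean of at least 1 CPM. This was done by Pearson's r of log2 CPM, here without subtracting group means, and with no test. Pdyn and Oprk1 shared nearest neighbours: Syndig1 (0.943 with Pdyn, 0.897 with Oprk1) and Tac1, the precursor of substance P (0.909 and 0.899). The third neighbour was Smim20 for Pdyn (0.928) and Carhsp1 for Oprk1 (0.896). Penk was most like Cbr3 (0.960), B9d2 (0.924) and Tmem41a (0.921), and shared none of these with Pdyn. Pnoc was most like AW551984 (0.972), Tmie (0.971) and Hap1 (0.964), and Oprl1 was most like 2310022B05Rik (0.968), Samd14 (0.959) and Glra2, a glycine receptor subunit (0.958). Oprm1 was most like Rif1 (0.962), Fam120c (0.955) and Smarcal1 (0.954). Oprd1 was most like Gm49702 (0.968), Fras1 (0.964) and Tln2 (0.964). Saline knockout mouse 3 had the lowest Oprm1 and Oprd1 of the series, and the neighbours were not sought again without it.

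The genes listed for the processing and breakdown of opioid peptides, most of them enzymes, showed no call in the edgeR fit of all 4 groups. Of 16 genes in this list, which holds the convertases Pcsk1 and Pcsk2, the carboxypeptidase Cpe and peptidases such as neprilysin (Mme), 16 were tested and 0 were called in each of the 7 contrasts by edgeR. Between 0% and 0.149% of all genes were called in those contrasts, so a count of 0 is not particular to this list. Other settings called 2 of the 16, named after their values were seen. Mme was called for amphetamine in control mice when only those groups were fitted (log2 fold change 0.55, adjusted p = 0.0404 by edgeR), against 0.56 and an adjusted p of 0.409 with all 4 groups. The fit of those groups alone called 75 among all genes. Pcsk2 was called in the drug contrast averaged over genotypes without the 5 libraries that stood apart (0.25, adjusted p = 0.0405 by edgeR), where 470 among all genes were called. In control mice the smallest p-values belonged to Ece2, an endothelin-converting enzyme relative, at a log2 fold change of -0.43 ± 0.148 (edgeR's quasi-likelihood test, adjusted p = 0.262), and to Pcsk2 at 0.26 ± 0.111 (adjusted p = 0.358). In knockout mice they belonged to the aminopeptidase Npepps at -0.19 ± 0.0768 and to Ace, the angiotensin-converting enzyme, at 0.52 ± 0.235. Between genotypes after amphetamine they belonged to Npepps at -0.24 ± 0.0769 and to Mme at -0.70 ± 0.276, and under saline to Lnpep at -0.16 and Scg5 at 0.15. The list's median lay at 0.024 in control mice and -0.021 in knockout mice after amphetamine.

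The genes that carry the signal of opioid receptors gave the same picture. Of 24 genes for inhibitory G proteins, their regulators, receptor kinases, arrestins, potassium channels and adenylyl cyclases, 24 were tested and 0 called in each of the 7 contrasts by edgeR. Beside them stand the same 0% to 0.149% of all genes. Rgs4, a regulator that shortens G protein signals, had the smallest p in control mice, at 0.58 ± 0.181 (edgeR's quasi-likelihood test, adjusted p = 0.218), with 457 ± 45.2 CPM in amphetamine control mice and 306 ± 56.2 CPM in saline control mice. It also stood first between genotypes after amphetamine, at -0.69 ± 0.194 (adjusted p = 0.225), with 283 ± 82.7 CPM in amphetamine knockout mice. Gnai2 in control mice had -0.19 ± 0.0719. In knockout mice after amphetamine the receptor kinase Grk3 had 0.46 ± 0.142 and the potassium channel subunit Kcnj9 0.47 ± 0.183. Adcy5, the main striatal adenylyl cyclase, had -0.58 ± 0.187 between genotypes after amphetamine, and Rgs19 had 0.23 and Arrb1 -0.17 between genotypes under saline. Between genotypes after amphetamine 3 of the 24 were higher and 5 lower at an unadjusted p under 0.05 by edgeR's quasi-likelihood test. Of all 21513 genes, 1600 were higher and 1149 lower at that level. For the drug answer between genotypes the smallest p-values were those of Npepps (-0.29), Pcsk1 (0.43), Grk3 (0.53) and Rgs4 (-0.69). Averaged over genotypes they were those of Ece2 (-0.35), Pcsk2 (0.15), Kcnj9 (0.42) and Adcy1 (0.55), and averaged over treatments those of Scg5 (0.17), Npepps (-0.092), Rgs9 (-0.50) and Rgs17 (0.19). Adcy5 and Rgs9 also stand in the list of projection neuron markers. Of 5 further genes for opioid-binding or related proteins, 4 were tested and 0 called, beside at most 0.149% of all genes. Among the 4 was Pomc, the precursor of beta-endorphin, with group means from 1.60 to 1.98 CPM, which also stands in the hypothalamic list.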

How the data were processed

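The authors deposited whole-number gene counts per mouse and 3 comparison tables with FPKM. Per the submitters' processing notes, which give no roles or order, the tools were FastQC 0.11.5, Trim Galore 0.5.0, STAR 2.6.0c, HTSeq 0.6.1p2, DESeq2 1.26.0s and R 3.6.1, on GRCm39. The log2 fold changes, p-values and adjusted p-values of the deposited tables are the authors' own and are named as such.

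Counts were scaled by TMM and tested in R 4.3.3 with edgeR 4.0.16 (filterByExpr, quasi-likelihood, robust) as 4 group means over 19 libraries with 7 contrasts. A gene was called at a Benjamini-Hochberg adjusted p under 0.05 over 21513 genes. DESeq2 1.42.0 and voom in limma 3.58.1 were alternatives. Scores used log2 CPM with a prior count of 2. The fit was also run on simulated counts, drawn independently for each mouse, and no result given here rests on that run. No libraries were copies (smallest chi-square per degree of freedom 11.2).

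Members, lists and rules were chosen with earlier results of these data known. Pathway genes were named by the 2 smallest p-values per list and contrast, and neighbours by the 3 highest correlations.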

Additional observations from a re-analysis of the deposited data

Results flagged for a closer look

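A mouse stood apart from its group by Dixon's criterion in 5 of 60 combinations of a group and a measure, where chance gives about 1 in 20. None of the 5 was an opioid gene or the Penk to Pdyn ratio. Saline knockout mouse 4 had the lowest direct pathway score of its group (5.00, mean log2 CPM), the lowest projection neuron score (7.77) and the highest pallidal and septal score (5.31). The same mouse had the highest Pnoc of the 19, at 22.9 CPM, and the lowest Penk of its group, at 469 CPM. Amphetamine control mouse 3 had the lowest pallidal and septal score of its group (3.08), and it also had the lowest Pnoc of the series, at 3.59 CPM. Saline control mouse 2 had the lowest pallidal and septal score of its group (4.23), with 8.61 CPM of Pnoc and 44.5 CPM of Oprl1, the lowest of its group for both.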

How the results depend on the processing

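Of 931 log2 fold changes of opioid genes recomputed without 1 mouse each, 910 kept their direction and their side of the threshold, and of 399 under other settings 380 did. The number of opioid genes called was 0 in each contrast except that DESeq2 called 1 for amphetamine in control mice (Pnoc) and 1 for amphetamine averaged over genotypes (Pnoc), and that leaving out the 5 libraries that stood apart, a setting chosen after seeing the data, called 1 in the averaged contrast (Oprm1). The adjusted p of Pnoc in control mice ranged from 0.0392 to 0.462 over its alternatives, and in the averaged contrast from 0.0370 to 0.300. The cause of these changes was not tested. Without those 5 libraries the log2 fold change turned for amphetamine in control mice in Oprk1 (0.069), in knockout mice in Penk (0.18), Oprd1 (0.073), Oprk1 (0.032) and Ace (-0.014), and averaged in Penk (0.24) and Oprk1 (0.051). For knockout against control it turned under saline in Penk (-0.037) and Pdyn (-0.10), after amphetamine in Oprm1 (-0.037) and Oprk1 (0.041), averaged in Oprk1 (0.059), and for the difference between genotypes in Oprl1 (-0.12). Pcsk2 was then called in the averaged drug contrast (0.25, adjusted p = 0.0405 by edgeR's quasi-likelihood test). With limma voom Oprm1 (0.15) and Oprd1 (0.019) turned for amphetamine in knockout mice. Leaving out 1 mouse turned 21 values of opioid genes and 1 of a pathway gene. Leaving out saline knockout mouse 3 turned Penk, Pdyn, Oprm1 and Oprk1 for genotype under saline. For amphetamine in control mice Oprk1 ran from -0.11 to 0.057. In knockout mice Oprd1 ran from -0.25 to 0.079, Oprl1 from -0.17 to 0.023 and Oprm1 from -0.37 to 0.069, and averaged Penk ran from -0.15 to 0.057 and Oprd1 from -0.0092 to 0.16. For genotype under saline Penk ran from -0.060 to 0.36, Pdyn from -0.095 to 0.11, Oprk1 from -0.031 to 0.14, Oprm1 from -0.42 to 0.025 and Scg5 from -0.030 to 0.23, and averaged over treatments Oprk1 ran from -0.14 to 0.015 and Oprm1 from -0.15 to 0.076.

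By the title number, 1 of 27 same-numbered pairs correlated above 0.1 after subtracting group means (range -0.349 to 0.154). Pairs with different numbers were not set beside them, so whether the title numbers pair the mice was not decided. With the title number as a replicate block 0 opioid genes were called in each of the 7 contrasts and none of the 49 values turned (Pnoc in control mice -0.85, adjusted p = 0.328 by edgeR). All genes called numbered 1 in control and 5 in knockout mice, against 1 and 1 without the block, and 18 against 32 averaged. By the number of the sample description, 3 of 4 knockout pairs correlated above 0.1 (0.0740 to 0.197) and 0 of 5 control pairs did (-0.193 to 0.0598), so not every pair met that level. With that number as the block, Oprm1 (0.15) and Oprd1 (0.10) turned in knockout mice, and all genes called numbered 0 in control mice, 0 in knockout mice and 8 averaged. Over all genes DESeq2 called 199 in control and 96 in knockout mice after amphetamine, 103 for genotype after amphetamine, 14 for the difference, 459 averaged over genotypes and 13 averaged over treatments. Fitting only the groups compared called 75 in control and 0 in knockout mice, limma voom called 3 in knockout mice, and leaving out the 5 libraries called 39, 2 and 470 for amphetamine in control mice, in knockout mice and averaged, and 1 for genotype after amphetamine. Without 1 mouse each these counts ran from 0 to 6, 0 to 29 and 3 to 269 for amphetamine in control mice, in knockout mice and averaged. Of the 7 genes Oprm1 had the fewest counts, from 60 to 526 per library.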
